A study of Homo sapiens with 4 samples.

Results

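The genes described here are 53 genes of voltage-gated ion channels and of channels that work beside them, out of 77973 genes in the deposited table. They were chosen by symbol alone, with no measured value in the rule. They comprise sodium channel pores (SCN1A, SCN2A, SCN3A, SCN8A, SCN9A) and their beta subunits (SCN2B, SCN3B), 14 calcium channel genes, 20 genes of voltage-gated potassium channels and their auxiliary subunits, and 12 further genes. Those 12 are the ion-activated potassium channels KCNMA1, KCNN2, KCNN3, KCNT1 and KCNT2, the inward rectifiers KCNJ3 and KCNJ6, the pacemaker channels HCN3 and HCN4, and the sodium leak channel NALCN with its partners UNC79 and UNC80. Not all of the 53 are gated by voltage: KCNN channels open with calcium, KCNT channels with sodium, and KCNJ3 and KCNJ6 with G proteins. At least 1 read was counted for each of the 53 genes, and 34 of them reached the mean of 20 reads per library that the tests required.

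A voltage-gated channel is built from a large pore-forming alpha subunit, whose voltage sensor moves when the membrane potential changes, and from smaller subunits that set its trafficking and kinetics. Sodium channels carry the rising phase of the action potential, potassium channels end it and set the interval to the next, and calcium channels couple it to transmitter release and gene expression. Young neurons turn on these genes as they mature.

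Transcripts were measured by Iso-Seq, PacBio long-read sequencing of complementary DNA, in neurons induced from 1 human iPSC line, KOLF2.1J. The CRISPRi-i3N derivative of that line carries NGN2 under a doxycycline-inducible promoter, which drives neuronal differentiation, and constitutive dCas9-BFP-KRAB, a catalytically dead Cas9 fused to a silencing domain. All 4 groups share these transgenes, and each was a pool of cells selected with puromycin after lentiviral delivery of 1 guide RNA. The control carried a non-targeting guide. The knockdown carried a guide against TARDBP, the gene of the RNA-binding protein TDP-43. The azacytidine group carried the non-targeting guide and was treated with 5 µM 5-azacytidine, a cytidine analogue that lowers DNA methylation, for 72 hours after spheroids had been plated on day 8 and had attached. The combined group had the TARDBP guide and the same treatment. Each group was 1 library, so no value below has a replicate check, and each test is one of the reads of a pair of libraries rather than of the conditions.

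The libraries held between 466337 and 767621 reads assigned to genes, of which 58.5% to 68.1% were assigned to a transcript. Sets of 4 values are given below in the order control, knockdown, azacytidine, combined. TARDBP had 104, 72, 73 and 43 reads, a log2 ratio of -0.87 between knockdown and control (adjusted exact p = 0.00134) and of -0.79 between combined and azacytidine (adjusted exact p = 0.0317), so the transcript was lower but still present. The 15 marker genes of cortical glutamatergic neurons summed to 1293, 1711, 1073 and 942 reads, and 11 of them reached the mean for testing. DCX had 247, 362, 250 and 244 reads. By the azacytidine rule given below, 2 of the 11 were higher and 0 lower (3.22% and 6.72% of all genes). Of the 4 markers not tested, NEUROD6 had 0 reads in all libraries and BCL11B had 0, 2, 0 and 0. Marker genes of pluripotent cells summed to 366, 467, 203 and 258 reads. Those of peripheral or cholinergic neurons summed to 262, 313, 196 and 144. Genes of dividing cells moved with azacytidine. The summed level of 10 proliferation genes was 1343, 1239, 133 and 91.8 CPM (reads scaled to the size of the library), and 8 of the 8 that could be tested were lower with azacytidine in both comparisons. MKI67 had 142, 154, 2 and 1 reads. The 9 progenitor genes summed to 504, 505, 85 and 64 reads, with PAX6 at 290, 313, 3 and 4 and SOX1 at 41, 36, 0 and 0. Of the 4 progenitor genes tested, 2 were lower by the same rule. Mesenchymal or muscle markers summed to 147, 115, 35.4 and 16.3 CPM, none of them tested. Astrocyte markers summed to 209, 183, 104 and 93.8 CPM, and 1 of the 2 tested was lower by that rule. Oligodendrocyte markers summed to 123, 73.1, 72.9 and 51.0 CPM and GABAergic ones to 32.5, 9.47, 12.5 and 18.4. In bulk samples fewer cells of a type and less RNA per cell cannot be told apart. The part that dividing cells, progenitors and other cell types play in the azacytidine values below was not tested.

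The reads of a gene in a pair of libraries were set against each other in a two-sided exact binomial test, with p adjusted over 8145 genes. A gene was called for azacytidine only if its adjusted p was under 0.05 and its log2 ratio at least 1 in size, in 1 direction, both in azacytidine against control and in combined against knockdown, which share no library. The knockdown rule used knockdown against control and combined against azacytidine in the same way. A crosswise rule asked for opposite directions in those last comparisons and so belongs to neither treatment.

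By these rules 3 of the 34 tested channel genes were called for azacytidine, where 9.93% of all genes tested were called. KCNMA1 and CACNB1 rose (3.22% of all genes rose) and CACNB2 fell (6.72% fell). The share of channel genes called, 3 of 34, is near that of all genes. None was called for the knockdown, where 0.994% of all genes were called, or crosswise, where 0.417% were. An additive model over the 4 libraries in edgeR called the same 3 channel genes for azacytidine (2.39% of all genes rose and 6.05% fell by it). The same model in DESeq2 called KCNMA1 and CACNB2 (0.417% of all genes rose and 2.87% fell) but not CACNB1, whose DESeq2 adjusted p was 0.281. For the knockdown edgeR called 0 of all genes and DESeq2 called 7. At an unadjusted edgeR p under 0.05 there were 4 of the 34 channel genes for the knockdown (SCN2A, CACNA1A, CACNA2D2 and UNC79), against 7.91% of all genes. Taken 1 comparison at a time and at any size of ratio, 10 of the 34 had an adjusted exact p under 0.05 in knockdown against control (15.5% of all genes) and 8 in combined against azacytidine (14.8%). For azacytidine the numbers were 14 against the control (26% of all genes) and 19 in combined against knockdown (42.4%).

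**Figure D1:**
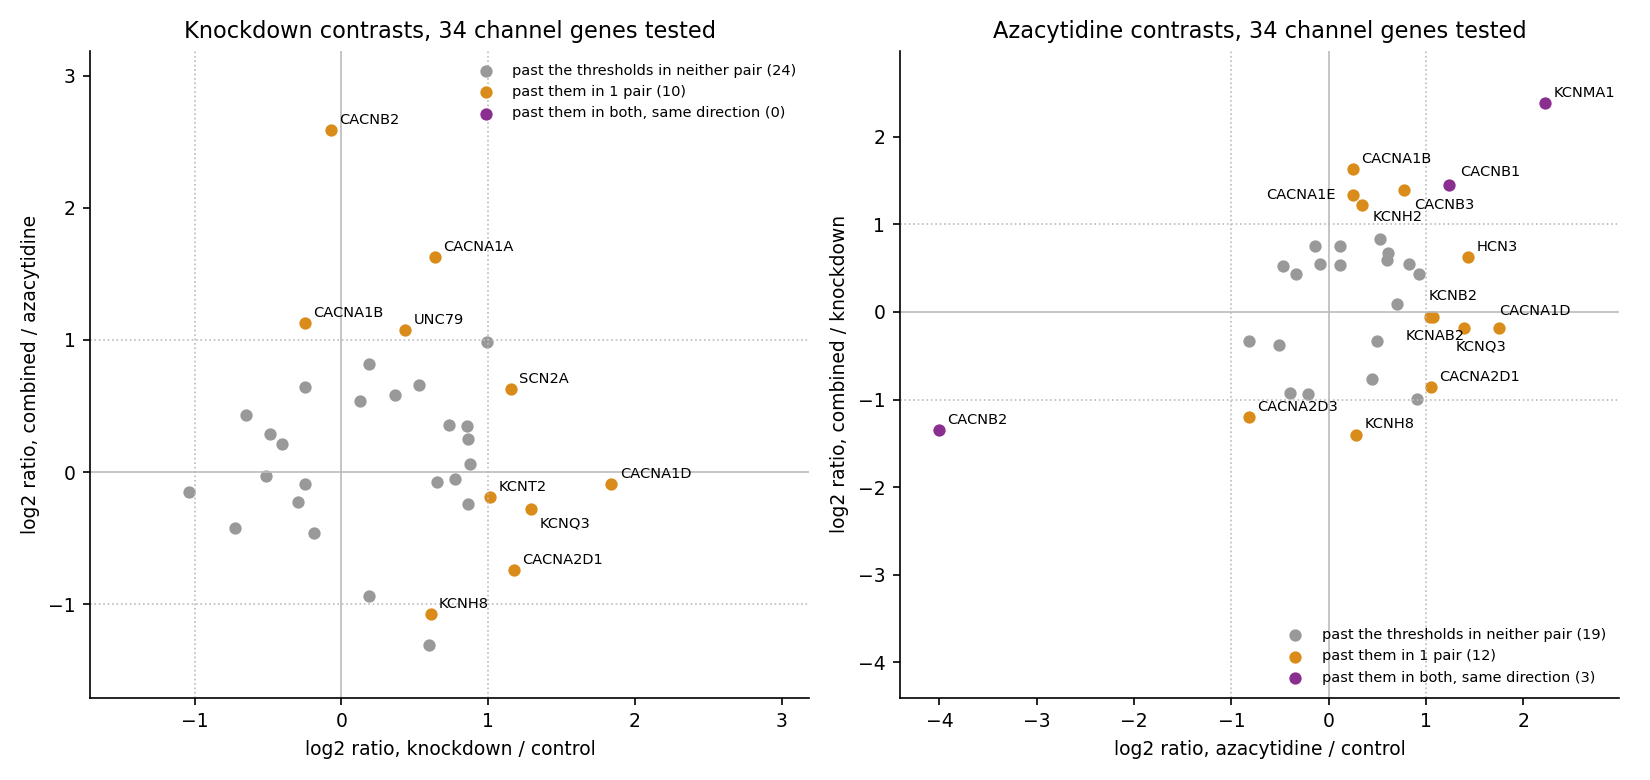
Log2 ratio of each of the 34 tested channel genes in the first (x axis) and the second (y axis) library comparison of each rule, knockdown on the left and azacytidine on the right; dashed lines mark a log2 ratio of 1 in size. For the knockdown 24 genes pass the thresholds in neither comparison, 10 in 1 and 0 in both. For azacytidine the numbers are 19, 12 and 3.

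As a group the channel genes held a larger share of reads in each of the 3 other libraries than in the control. Their summed level was 3204, 4432, 4234 and 4757 CPM. The median log2 ratio of the 34 tested genes was 0.48 in knockdown against control and 0.47 in azacytidine against control, while the medians over all 8145 genes were -0.01 and 0.00. It was 0.14 in combined against azacytidine and 0.43 in combined against knockdown. The first of these comparisons use the same control library, which was the library with the lowest sum. The direction was the same in both comparisons of the knockdown for 18 of the 34 genes, against 55.8% of all genes, and in both comparisons of azacytidine for 21, against 70.2%.

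**Figure D2:**
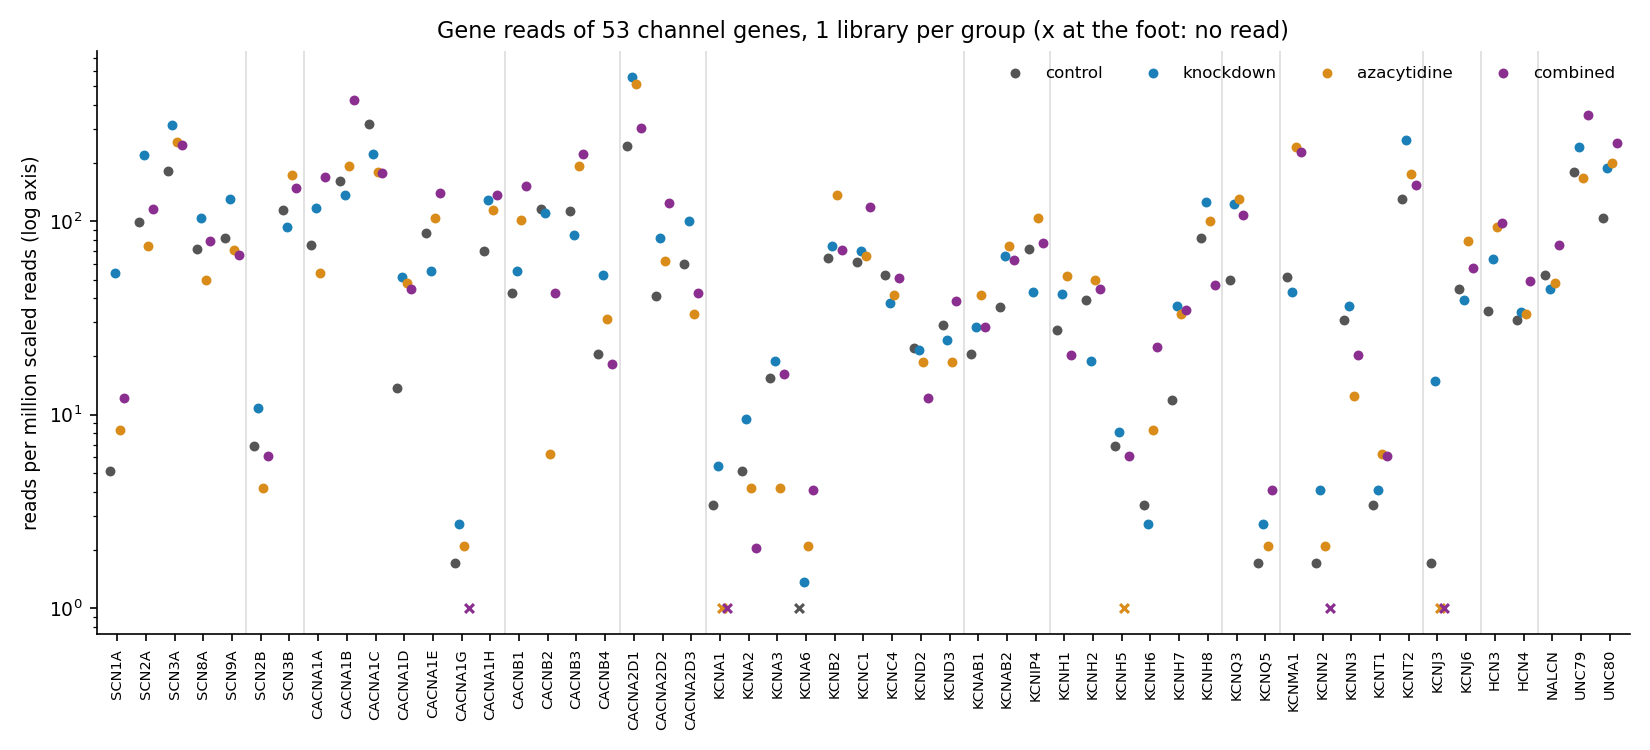
Level of each of the 53 channel genes (CPM, log y axis) in the 4 libraries, 1 coloured point per library, with genes on the x axis grouped by role class and a cross at the foot where a library had no read. KCNMA1 has both azacytidine libraries above the others, and the azacytidine library of CACNB2 stands far below the other 3.

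Sodium channel alpha subunits summed to 441, 824, 462 and 524 CPM, highest in the knockdown library. SCN3A, a pore of immature neurons, had the most reads of the class, 107, 232, 124 and 122. Its log2 ratio was 0.77 in knockdown against control (adjusted exact p = 6.99e-05) and -0.05 in combined against azacytidine. SCN2A, ENSG00000136531.19 at chr2:165194993-165392310 on the plus strand of hg38, encodes the early axonal sodium channel of excitatory neurons and had 58, 164, 36 and 57 reads. In knockdown against control, where 3.43% of all genes were higher past both thresholds, its log2 ratio was 1.15 (95% interval 0.72 to 1.62, adjusted exact p = 1.56e-06). In combined against azacytidine the ratio was 0.63 (adjusted exact p = 0.157). The extra reads lay mostly outside transcripts: reads assigned to a transcript were 27, 38, 27 and 23, and those without were 31, 126, 9 and 34. SCN3A lies on the opposite strand and overlaps SCN2A, though not in exons. SCN3A reads without a transcript were 56, 151, 55 and 63. Whether SCN2A and SCN3A share reads was not tested.

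SCN1A, the sodium channel gene of Dravet syndrome, stood at 3, 40, 4 and 6 reads and was too low on average to be tested. Only 4 of the 40 reads in the knockdown library were assigned to a transcript. The antisense gene SCN1A-AS1, on the opposite strand and overlapping SCN1A, had 0, 36, 1 and 0 reads, all 36 of them assigned to no transcript. Whether those are the same 36 reads counted for both genes, and which strand they came from, cannot be told apart in the deposited counts, since the sources used here do not state whether counting used strand. SCN8A had 42, 77, 24 and 39 reads and SCN9A, a sodium channel of sensory neurons, 48, 96, 34 and 33. Neither passed both thresholds in any comparison. SCN1A-AS1 also overlaps SCN9A on the opposite strand, exon to exon. SCN9A reads without a transcript were 11, 35, 9 and 17, and whether SCN1A-AS1 and SCN9A share reads was not tested. Among the beta subunits SCN3B had 67, 69, 84 and 73 reads with no log2 ratio above 0.67 in size, and SCN2B had 2 to 8.

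Calcium channel alpha1 subunits were the class with the most genes past the thresholds in a single comparison, but not in both comparisons of a rule. Combined against azacytidine set apart CACNA1A and CACNA1B, the pores of the P/Q-type and N-type channels that trigger transmitter release. CACNA1A had 44, 87, 26 and 83 reads, a log2 ratio of 1.63 in that comparison (95% interval 0.995 to 2.34, adjusted exact p = 3.66e-06) and of 0.64 in knockdown against control. CACNA1B had 95, 101, 93 and 208 reads. Its combined library stood above the other 3, with a log2 ratio of 1.13 against azacytidine (adjusted exact p = 7.29e-09) and of 1.63 against the knockdown (95% interval 1.28 to 1.99, adjusted exact p = 1.88e-20). Among all genes, 3.72% were higher past both thresholds in combined against azacytidine and 11.6% in combined against knockdown. Transcript reads differed less, at 19, 37, 23 and 22 for CACNA1A and 31, 45, 39 and 49 for CACNA1B, and gave log2 ratios of 0.03 and 0.42 in combined against azacytidine.

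CACNA1E, the R-type pore, had 51, 41, 50 and 69 reads, with a log2 ratio of 1.34 in combined against knockdown (95% interval 0.765 to 1.94, adjusted exact p = 1.43e-05). CACNA1D, an L-type pore that opens at lower voltages than CACNA1C, had 8, 38, 23 and 22 reads and was low in the control alone: its log2 ratio was 1.84 in knockdown against control (95% interval 0.788 to 3.22, adjusted exact p = 0.00258) and 1.75 in azacytidine against control (adjusted exact p = 0.00955). In the comparisons that do not use the control library the ratios were -0.09 and -0.18. The other L-type pore, CACNA1C, had the most reads of the class, 187, 166, 87 and 87, and went the other way. The 2 libraries with azacytidine had fewer of its reads than the 2 without, and its log2 ratio was -0.82 against the control (adjusted exact p = 1.01e-04) and -0.34 in combined against knockdown, short of the thresholds. Few of those reads were assigned to transcripts, 9, 20, 16 and 28, so the transcript reads did not fall with them. CACNA1H, a T-type pore, had 41, 95, 55 and 67 reads with no log2 ratio above 0.86 in size, and CACNA1G had 0 to 2.

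The cytoplasmic beta subunits bring the alpha1 pore to the membrane, and 2 of the 3 tested were called for azacytidine, in opposite directions. CACNB1, ENSG00000067191.17 at chr17:39173453-39197702 on the minus strand, had 25, 41, 49 and 75 reads. Both azacytidine libraries stood above both libraries without it. CACNB1 rose 2.36-fold in azacytidine against control (log2 1.24, 95% interval 0.531 to 2.01, adjusted exact p = 0.00277) and 2.74-fold in combined against knockdown (log2 1.46, 95% interval 0.896 to 2.05, adjusted exact p = 9.53e-07). Its transcript reads, 18, 19, 25 and 28, gave log2 ratios of 0.69 (adjusted exact p = 0.383) and 1.12 (adjusted exact p = 0.0449), and the call was lost on them alone.

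CACNB2, ENSG00000165995.24 at chr10:18140424-18543557 on the plus strand, had 68, 82, 3 and 21 reads. The azacytidine library was lowest and the combined library lay between it and the 2 untreated ones. CACNB2 fell in azacytidine against control by 4.01 on the log2 scale, where 10.5% of all genes were lower past both thresholds (95% interval -6.53 to -2.61, adjusted exact p = 9.33e-13) and in combined against knockdown by 1.35 (95% interval -2.14 to -0.667, adjusted exact p = 1.7e-04). Combined exceeded azacytidine with a log2 ratio of 2.59 (95% interval 1.03 to 5.17, adjusted exact p = 0.00417). Hardly any CACNB2 read was assigned to a transcript: those counts were 3, 7, 3 and 0, and the change lay in reads without a transcript, 65, 75, 0 and 21. The gene NSUN6 lies on the opposite strand with overlapping exons and had 43, 49, 34 and 43 reads, and a further opposite-strand gene, ENSG00000240291, had 19, 12, 3 and 23. How much these genes share reads with CACNB2 was not tested. CACNB3, the most read beta subunit gene, had 66, 63, 93 and 110 reads, with log2 ratios of 0.78 (adjusted exact p = 0.00514) and 1.39 (adjusted exact p = 6.2e-09) for azacytidine, the first of them short of the size required. CACNB4 had 12, 39, 15 and 9 reads and was not tested.

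Alpha2delta subunits, a family that includes the targets of gabapentin, summed to 347, 740, 608 and 473 CPM. CACNA2D1, ENSG00000153956.17 at chr7:81946444-82443956 on the minus strand, had 144, 412, 246 and 150 reads. Relative to library size either treatment alone stood furthest above the control, at 557 and 512 CPM against 246, and the combined library lay nearer to it at 306. The log2 ratio was 1.17 in knockdown against control (95% interval 0.901 to 1.46, adjusted exact p = 1.46e-16) but -0.74 in combined against azacytidine (95% interval -1.05 to -0.444, adjusted exact p = 2.3e-05). For azacytidine the ratios were 1.05 in control cells (adjusted exact p = 6.84e-11) and -0.86 in knockdown cells (adjusted exact p = 1.36e-09). This opposition was weak in its transcript reads, 76, 114, 111 and 68, whose log2 ratios for the knockdown were 0.33 (adjusted exact p = 0.535) and -0.61 (adjusted exact p = 0.101). In the reads assigned to no transcript the ratios were 1.56 and -1.14. CACNA2D2 had 24, 61, 30 and 61 reads and was the channel gene nearest to a knockdown call. Both libraries with the TARDBP guide held more than both without it, with log2 ratios of 0.99 (adjusted exact p = 0.0254) and 0.98 (adjusted exact p = 0.016), just under 1. Its transcript reads, 21, 56, 25 and 36, gave 1.14 (adjusted exact p = 0.0548) and 0.61 (adjusted exact p = 0.51). CACNA2D2 reads without a transcript were 3, 5, 5 and 25. CACNA2D3 had 35, 74, 16 and 21 reads, with a log2 ratio of -1.20 in combined against knockdown (adjusted exact p = 0.00136), where 15% of all genes were lower past both thresholds.

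Most voltage-gated potassium channel pores of the Kv families were low: 3 of 9 were tested, and the class summed to 255, 264, 294 and 314 CPM. KCNB2, of the delayed rectifiers, had 38, 55, 66 and 35 reads. It passed both thresholds in azacytidine against control alone (log2 1.07, adjusted exact p = 0.00183), where 6.02% of all genes were higher past them, and was -0.05 in combined against knockdown. KCNC1, which lets neurons fire fast, had 36, 52, 32 and 58 reads and KCNC4 had 31, 28, 20 and 25. KCNA1, KCNA2, KCNA3, KCNA6, KCND2 and KCND3, the pores of axonal and A-type currents, stood between 0 and 19 reads. Of their auxiliary subunits KCNIP4, a calcium-binding partner of the A-type pores, had 42, 32, 50 and 38 reads with no log2 ratio above 0.84 in size. KCNAB2 had 21, 49, 36 and 31 reads with a log2 ratio of 1.05 in azacytidine against control (adjusted exact p = 0.0319), and KCNAB1 had 12, 21, 20 and 14.

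Among the KCNH genes, which encode the ether-a-go-go family, KCNH8 had 48, 93, 48 and 23 reads. The combined library was lowest, with log2 ratios of -1.07 against azacytidine (adjusted exact p = 0.0243), where 4.75% of all genes were lower past both thresholds, and of -1.40 against the knockdown (adjusted exact p = 3.96e-05). Its transcript reads, 21, 35, 23 and 20, gave -0.11 and -0.22 in the same comparisons, so the low value lay in reads without a transcript. KCNH2, the hERG channel, had 23, 14, 24 and 22 reads and a log2 ratio of 1.23 in combined against knockdown (adjusted exact p = 0.0279). KCNH1, KCNH5, KCNH6 and KCNH7 stood between 0 and 31 reads. KCNQ3, a subunit of the M-current that damps repetitive firing, was low in the control alone, with 29, 91, 63 and 53 reads. Its log2 ratio was 1.29 in knockdown against control (95% interval 0.695 to 1.97, adjusted exact p = 1.97e-04) and 1.39 in azacytidine against control (adjusted exact p = 9.57e-05), but -0.28 and -0.18 where the control was not used. Its transcript reads were 28, 65, 61 and 47, and 26 of its 91 reads in the knockdown had no transcript. On transcript reads alone the ratio in knockdown against control was 0.94 (adjusted exact p = 0.104), and in azacytidine against control it was 1.34 (adjusted exact p = 6.2e-04). KCNQ5 had 1 or 2 reads in each library.

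KCNMA1, ENSG00000156113.25 at chr10:76869601-77638369 on the minus strand, encodes BK, the large-conductance potassium channel opened by calcium and voltage together, and had the largest rise with azacytidine of the 34 tested genes. It had 30, 32, 117 and 112 reads, so both azacytidine libraries stood well above both others. The log2 ratio was -0.25 in knockdown against control (95% interval -1.01 to 0.52) and -0.09 in combined against azacytidine (95% interval -0.48 to 0.29). KCNMA1 rose 4.69-fold in azacytidine against control (log2 2.23, 95% interval 1.66 to 2.88, adjusted exact p = 2.54e-15) and 5.22-fold in combined against knockdown (log2 2.38, 95% interval 1.82 to 3.01, adjusted exact p = 1.47e-18). The additive edgeR model gave a log2 fold change of 2.32 (edgeR adjusted p = 0.00552). Its transcript reads, 23, 29, 45 and 43, were also called, with smaller log2 ratios of 1.18 (adjusted exact p = 0.013) and 1.13 (adjusted exact p = 0.00702). Among all genes tested on transcript reads, 1.07% rose by the azacytidine rule. Reads without a transcript went from 7 and 3 to 72 and 69. The antisense gene KCNMA1-AS1 had 2, 0, 1 and 0 reads.

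KCNT2, a sodium-activated potassium channel, had 76, 195, 85 and 76 reads, highest in the knockdown library. Its log2 ratio was 1.02 in knockdown against control (95% interval 0.632 to 1.42, adjusted exact p = 2.65e-06), -0.19 in combined against azacytidine and -0.76 in combined against knockdown. KCNN3 had 18, 27, 6 and 10 reads, and KCNT1 and KCNN2 had 0 to 3. KCNJ6, a G-protein-gated inward rectifier, had 26, 29, 38 and 28 reads with no ratio past the thresholds, while its partner KCNJ3 had 1, 11, 0 and 0. HCN3, a pacemaker channel, had 20, 47, 45 and 48 reads and passed the thresholds in azacytidine against control alone (log2 1.43, 95% interval 0.664 to 2.29, adjusted exact p = 0.0012). HCN4 had 18, 25, 16 and 24 reads.

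NALCN carries a steady sodium leak that holds the resting potential, and UNC79 and UNC80 are large scaffolds it needs in neurons. NALCN had 31, 33, 23 and 37 reads and no ratio past the thresholds. UNC79 had 105, 180, 81 and 175 reads, higher in both libraries with the TARDBP guide than in both without. Only combined against azacytidine passed the thresholds (log2 1.08, 95% interval 0.694 to 1.48, adjusted exact p = 6.21e-07). Knockdown against control gave 0.44. UNC80 had 61, 140, 96 and 125 reads and was lowest in the control, with log2 ratios of 0.85 in knockdown against control (adjusted exact p = 0.0012) and 0.93 in azacytidine against control (adjusted exact p = 7.0e-04), both short of the size required.

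Several of these differences lay in reads that the counting gave to a channel gene but to none of its transcripts. Such reads were a larger part of the channel genes' total than of most genes' total. The median share over the 34 tested genes was 53%, against 32.1% over all 8145 genes, and 28.6% over the 3312 genes whose transcripts are of like length. For 20 of the 34 such reads were the majority, which held for 21.6% of all genes. Pooled over all 53 channel genes the share was 53.6% in the control (Wilson 95% interval 51.3% to 55.9%), 59.4% in the knockdown (57.7% to 61.0%), 45.8% with azacytidine (43.7% to 48.0%) and 54.7% in the combined library (52.7% to 56.7%). These intervals cover counting error only. Counted on reads without a transcript alone, 1 of 19 channel genes tested was called for the knockdown (SCN2A, where 4.39% of all genes were called), 5 for azacytidine (CACNB1, CACNB2, CACNB3, KCNMA1 and SCN2A, 15.2% of all) and 1 crosswise (CACNA2D1, 2.69% of all). On transcript reads alone KCNMA1 was the only one of 23 called for azacytidine (5.35% of all). The order of the libraries in the share without a transcript followed that of all reads, for which the share in a transcript was 63.9%, 58.5%, 68.1% and 60.4%.

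The length of genome a gene spans moved with that share. The median span was 303.5 kb for the tested channel genes and 50.7 kb for all genes. Among genes spanning at least 400 kb the pooled share without a transcript was 62.1% for the 12 channel genes and 51.6% for all 350 genes. Between 200 and 400 kb it was 64.2% for 8 channel genes and 46.0% for 653 genes, and under 50 kb it was 41.8% for 5 and 32.4% for 4020. Only between 50 and 100 kb, with 3 channel genes, was it lower than for genes of like span, 26.5% against 34.8%.

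**Figure D3:**
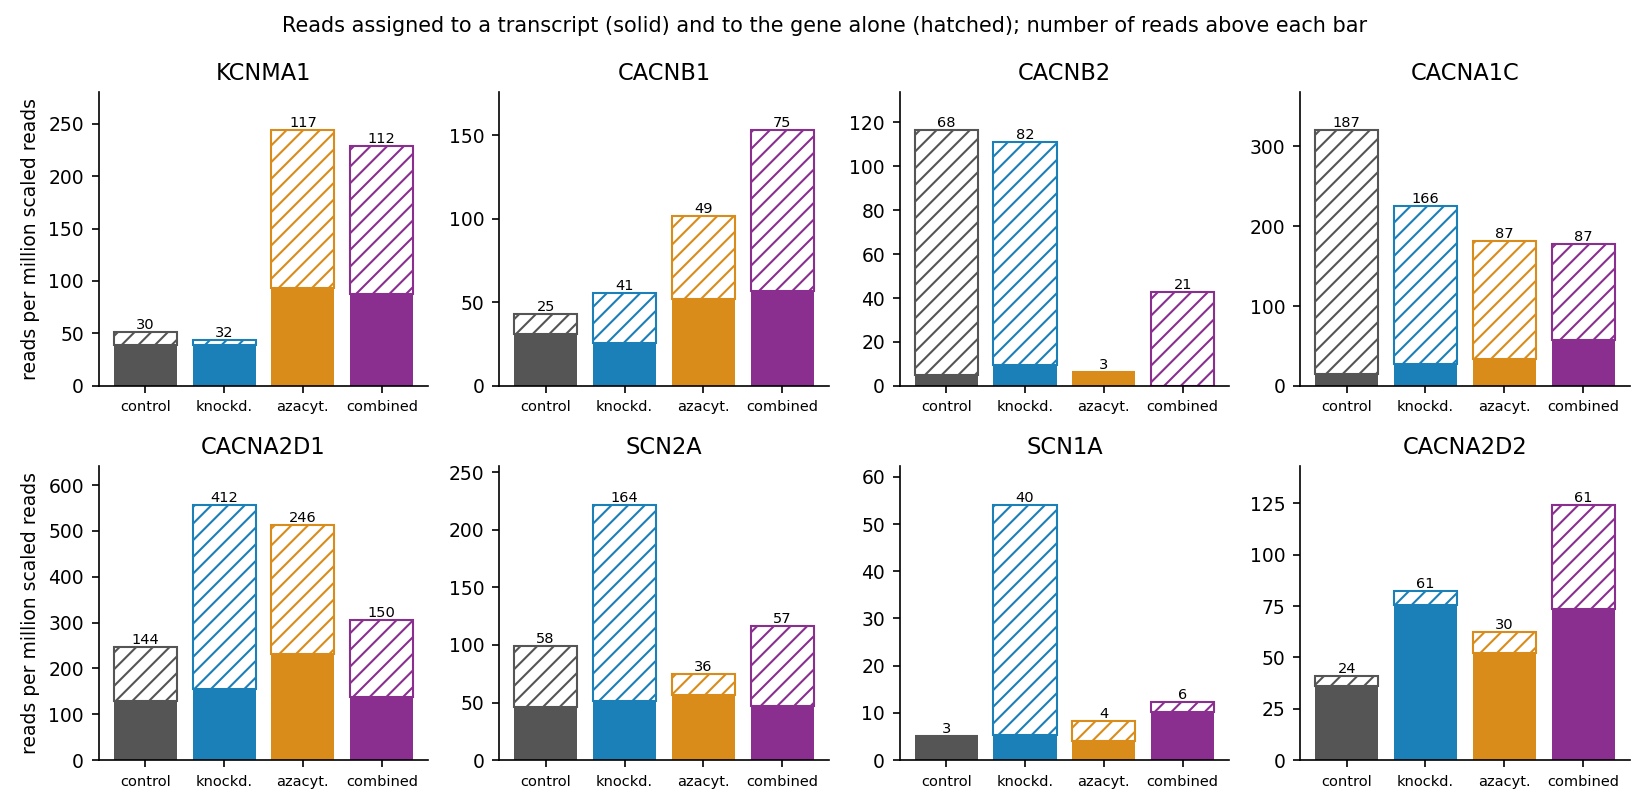
Level (CPM, y axis) of 8 channel genes in the 4 libraries (x axis), as reads assigned to a transcript (solid) and to none (hatched), with the number of reads above each bar. KCNMA1 and CACNB2 differ mainly in the hatched part. CACNA2D2 differs mainly in the solid part between knockdown and control, but mainly in the hatched part between combined and azacytidine.

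The role classes, each with all its members, differed widely in this. Reads without a transcript were 71.4% of the reads of NALCN, UNC79 and UNC80, 61.7% for calcium alpha1 subunits, 60.3% for calcium beta subunits and 57.5% for sodium alpha subunits, but 11.9% for sodium beta subunits, 15.7% for KCNQ genes and 18.8% for KCNJ3 and KCNJ6 together. Full-length reads, which cover a transcript from its first to its last exon, were 10.2% of the transcript reads of the tested channel genes, against 20% in genes of like length and 27.0% in all genes. They were 0.70% for sodium alpha subunits, 1.55% for calcium alpha1 subunits and 0 for KCNQ genes. In the auxiliary subunits of potassium channels 34.3% were full-length. Among channel genes of 20 to 30 exons 1.09% of transcript reads were full-length, against 14.8% over all genes with as many exons, while at 30 exons or more the values were 5.36% and 6.01%.

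**Figure D4:**
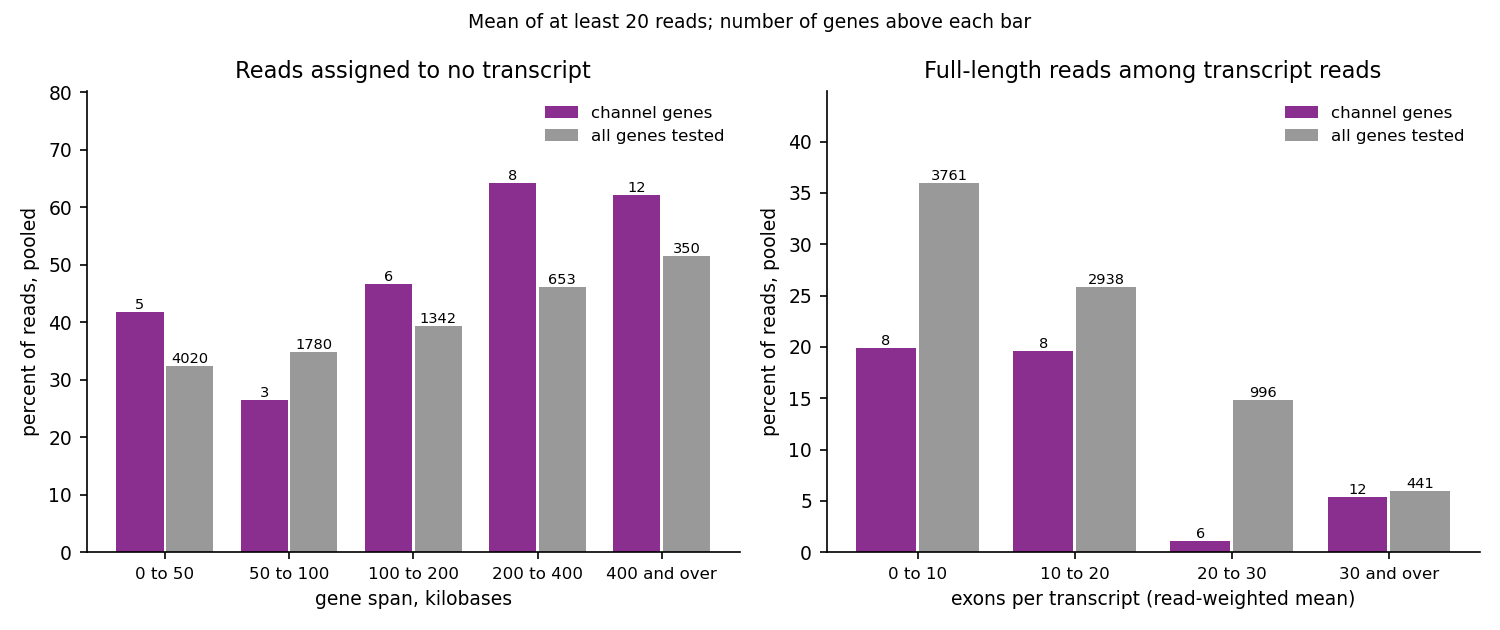
Pooled share of reads without a transcript by gene span (left) and of full-length reads among transcript reads by exon number (right), in percent, for the tested channel genes and all tested genes, with the number of genes above each bar. Above 200 kb the channel genes exceed genes of like span, and between 20 and 30 exons their full-length share is far below.

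Since a transcript is named from partial reads in these genes, its share of the gene's reads is less certain than the gene's count. The test asked whether a transcript held another share of its gene's transcript reads in 2 libraries (two-sided Fisher's exact test, adjusted over 15531 transcripts, a change of at least 10 percentage points). Of the 59 transcripts tested in 23 channel genes, none was called for the knockdown (0.702% of all transcripts were) or for azacytidine (1.13%). Taken singly, 10 passed in knockdown against control (6.82% of all transcripts), 5 in combined against azacytidine (4.4%), 5 in azacytidine against control (5.76%) and 6 in combined against knockdown (7.15%). Transcripts of the same gene are not independent here, since a larger share of one leaves less for the others. Among the 10 in knockdown against control, KCNT2, CACNA1E, SCN3B and CACNA2D1 each gave a pair in opposite directions. At an unadjusted exact p under 0.05 there were 14 in knockdown against control (15.4% of all transcripts), 8 in combined against azacytidine (12.4%), 16 in azacytidine against control (14.9%) and 11 in combined against knockdown (17%). A single transcript was called crosswise (0.528% of all): ENST00000272845.10 of UNC80 held 17 of 23 transcript reads in the control, 11 of 42 in the knockdown, 0 of 27 with azacytidine and 11 of 36 in the combined library. Its share fell by 47.7 percentage points in knockdown against control (adjusted exact p = 0.0065) and rose by 30.6 in combined against azacytidine (adjusted exact p = 0.037). Reads assigned to this transcript alone were 4, 4, 0 and 4, and none of its reads was full-length. Most of its estimated reads thus rest on the division of shared reads.

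**Figure D5:**
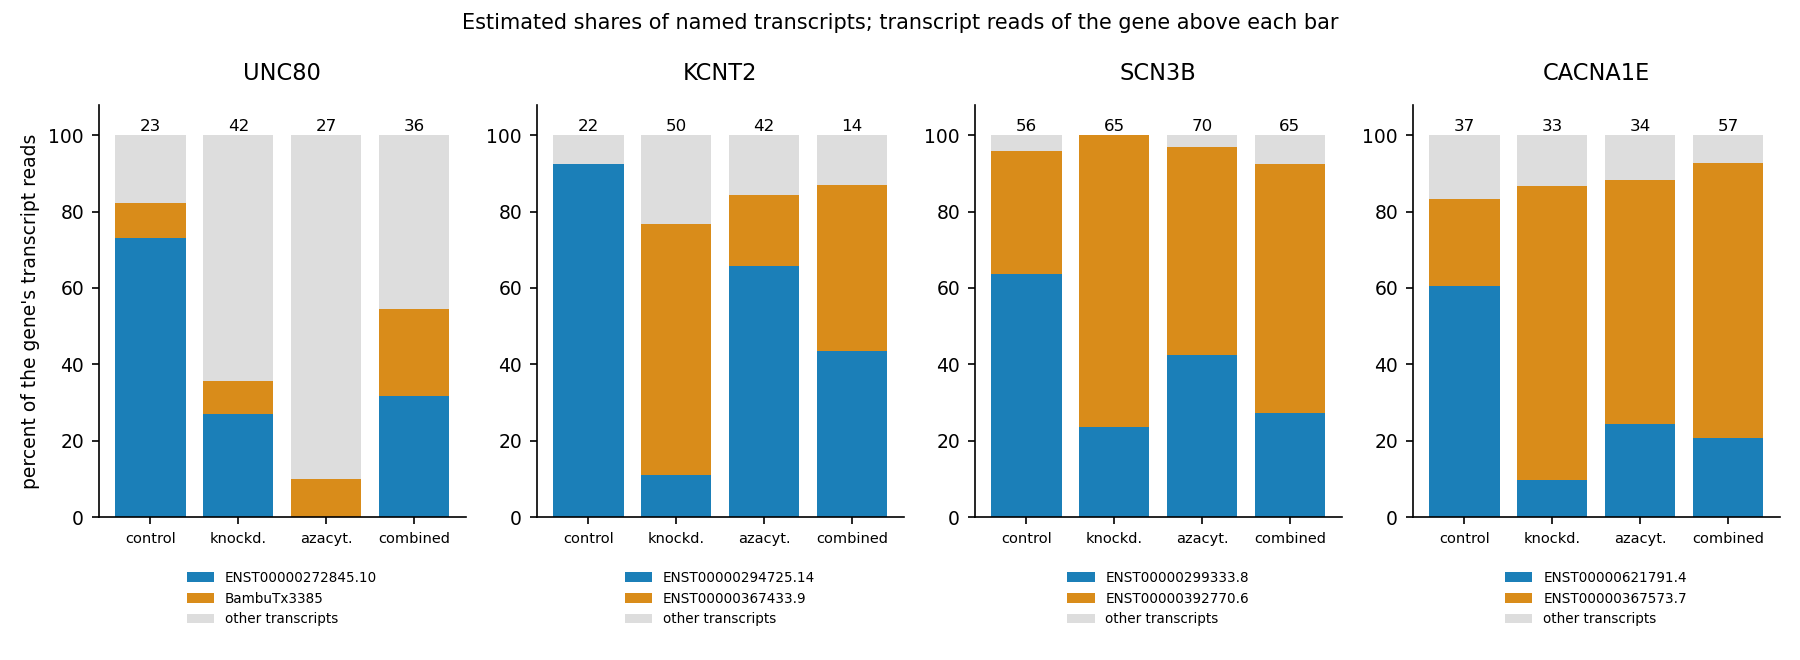
Share of the transcript reads of UNC80, KCNT2, SCN3B and CACNA1E held by named transcripts (percent, y axis; the remainder in grey) in each of the 4 libraries, with the number of transcript reads above each bar. In each gene the named reference transcripts differ in share between the control and the knockdown, for example 20 of 22 against 5 of 50 reads of KCNT2.

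The transcripts of KCNT2, CACNA1E, SCN3B and KCNMA1 described next passed in 1 comparison or in 2 that share a library, and were chosen after their values were seen. In KCNT2 transcript ENST00000294725.14 held 20 of 22 transcript reads in the control and 5 of 50 in the knockdown, while ENST00000367433.9 went from 0 to 33 (difference of 66.0 percentage points, adjusted exact p = 3.5e-06). The first contains, and the second lacks, a cassette exon of 72 bases at chr1:196319484-196319555 on the minus strand of hg38. It is shown because these forms differ by it and otherwise only in the end of the first exon.
KCNT2 cassette exon: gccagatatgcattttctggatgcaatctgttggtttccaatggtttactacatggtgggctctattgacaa
By the estimated counts, transcripts with the exon were 100% of the reads that could be placed in the control, 11% in the knockdown, 67.3% with azacytidine and 50% in the combined library. Reads assigned to 1 transcript alone were few: 5, 1, 7 and 0 with the exon and 0, 10, 5 and 0 without it. The combined library held none of either kind, so its value of 50% rests on an even division of shared reads.

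In CACNA1E, ENST00000367573.7 held 8, 25, 22 and 41 of 37, 33, 34 and 57 transcript reads and ENST00000621791.4 held 22, 3, 8 and 12. The first rose by 54.1 percentage points in knockdown against control (adjusted exact p = 4.3e-04) and by 43.1 in azacytidine against control (adjusted exact p = 0.0091). The forms are 16420 and 16171 bases long. The first has, and the second lacks, exons of 57 bases (chr1:181731175-181731231) and 129 bases (chr1:181793665-181793793), which are not their whole difference in length. Reads assigned to the form with these exons alone were 1, 2, 4 and 7, and no read was assigned to the form without them alone in any library. SCN3B transcripts ENST00000392770.6, with 18, 50, 38 and 42 reads, and ENST00000299333.8, with 36, 15, 30 and 18, differ in their first exons. The share of the first was 44.8 percentage points higher in the knockdown than in the control (adjusted exact p = 6.9e-05). Reads assigned to ENST00000392770.6 alone were 3, 0, 6 and 7, and to ENST00000299333.8 alone 6, 4, 12 and 5. The 50 reads of ENST00000392770.6 in the knockdown thus rest on the division of shared reads. In all 3 genes the control library stood at 1 end. KCNMA1 transcript ENST00000372443.6 held 0 of 23, 0 of 29, 4 of 45 and 18 of 43 transcript reads, and 18 reads of the combined library were assigned to it alone (adjusted exact p = 0.014 against azacytidine and 6.4e-04 against the knockdown).

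Beside 903 annotated transcripts the channel genes had 8 that are absent from the reference annotation, in 7 of the 53 genes (13.2%). The share was 8.63% over all 77186 annotated genes. That set asked for no reads, while each of the 53 had some, so the shares cannot be compared directly. The unannotated channel transcripts with at least 10 reads were BambuTx3893 of KCNH8, with 14, 17.4, 10.8 and 9.9 reads, and BambuTx3385 of UNC80, with 2.13, 3.65, 2.71 and 8.20. The KCNH8 transcript had the most reads of that gene's transcripts over the 4 libraries together, through the control, while ENST00000328405.7 had slightly more in the other 3. All 14 of its introns are annotated. The UNC80 transcript has 8 exons and ends in an exon of 3206 bases at chr2:209807284-209810489, where no annotated exon lies. Of its reads 1, 1, 1 and 6 were full-length, and 2, 3, 2 and 7 were assigned to it alone.

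Over the 4 libraries together the most read transcripts of the leading genes were reference ones elsewhere. For SCN3A it was ENST00000283254.12 with 41.9, 64.4, 48.0 and 45.3 reads, none of them full-length, and for CACNA2D1 ENST00000356860.8 with 76.0, 81.0, 97.3 and 63.5, of which 1, 2, 4 and 3 were. The same held in KCNQ3, where ENST00000388996.10 took 28, 65, 59.6 and 47 reads, none full-length. CACNB3 had 7, 6, 11 and 7 full-length reads among 20.4, 16.2, 29 and 24 of ENST00000301050.7. In KCNJ6 ENST00000609713.2, 19659 bases in 4 exons, had 19, 24, 34 and 25 reads, of which 5, 7, 9 and 10 were full-length. In UNC79 ENST00000695012.1 had 19.4, 30.8, 15.4 and 44.2 reads, and in HCN3 ENST00000368358.4 had 11, 25, 25 and 23.9. KCNB2, KCNIP4 and CACNA1C were led by ENST00000523207.2 (13, 14, 24 and 7), ENST00000382152.7 (12, 12, 25 and 15) and ENST00000399641.6 (2.1, 2.5, 3.5 and 22.3), the last through the combined library.

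The promoters of the 3 genes called for azacytidine are shown with each CpG in capitals, since azacytidine acts on methylation at CpG. Methylation itself was not measured in these libraries. They are the most CpG-rich RefSeq promoter of each gene (GRCh38.p14, 250 bases before to 50 after the start, written along the gene's strand), at chr10:77637759-77638058 for KCNMA1 (minus), chr17:39197620-39197919 for CACNB1 (minus) and chr10:18140174-18140473 for CACNB2 (plus).
KCNMA1 promoter: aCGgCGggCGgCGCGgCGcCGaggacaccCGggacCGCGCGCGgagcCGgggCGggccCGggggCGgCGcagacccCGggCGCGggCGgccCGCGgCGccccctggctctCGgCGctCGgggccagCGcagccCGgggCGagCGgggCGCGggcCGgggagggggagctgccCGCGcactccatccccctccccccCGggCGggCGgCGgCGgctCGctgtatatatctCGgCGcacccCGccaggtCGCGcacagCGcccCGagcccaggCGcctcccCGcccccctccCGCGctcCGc
CACNB1 promoter: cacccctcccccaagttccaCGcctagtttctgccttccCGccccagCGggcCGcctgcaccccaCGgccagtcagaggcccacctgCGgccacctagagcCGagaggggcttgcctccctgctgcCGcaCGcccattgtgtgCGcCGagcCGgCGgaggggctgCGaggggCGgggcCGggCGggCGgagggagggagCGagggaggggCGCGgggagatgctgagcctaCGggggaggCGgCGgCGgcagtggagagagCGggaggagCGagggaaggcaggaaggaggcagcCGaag
CACNB2 promoter: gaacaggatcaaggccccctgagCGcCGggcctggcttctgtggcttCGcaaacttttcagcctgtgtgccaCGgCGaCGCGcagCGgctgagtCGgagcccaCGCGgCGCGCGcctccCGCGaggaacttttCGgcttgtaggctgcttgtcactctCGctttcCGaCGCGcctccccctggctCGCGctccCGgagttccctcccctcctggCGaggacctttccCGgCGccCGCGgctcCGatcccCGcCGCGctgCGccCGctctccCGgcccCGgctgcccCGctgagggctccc
The KCNMA1 window holds 54 CpG, a number reached by 0.464% of the 35116 promoters in the table. CACNB1 holds 28 (26.2% of promoters have at least as many) and CACNB2, which fell, holds 38 (9.91%). A further RefSeq promoter of KCNMA1 holds 1 CpG, and further ones of CACNB2 hold 10, 8 and 7. Which promoter was in use was not tested. The motif searched was CG, which reads the same on both strands. Over the 45 channel genes with a promoter in the table the median count in the richest promoter was 32, from 1 to 56. It was 16 over all 27305 genes with a promoter there, which were not matched to the channel genes in reads or kind.

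Among other channel and channel-anchoring genes 29 were tested. None was called for the knockdown or crosswise, and 4 rose and 2 fell with azacytidine, where 3.22% of all genes rose and 6.72% fell. CACNG3, a calcium channel gamma family member that accompanies AMPA receptors, had 15, 9, 30 and 41 reads (log2 1.26 and 2.72). The potassium channel genes KCNC2 and KCNN1 had 15, 11, 34 and 32 reads (1.44 and 2.09) and 36, 24, 67 and 44 reads (1.17 and 1.45). SPTBN4, the spectrin of the axon initial segment where sodium and KCNQ channels are anchored, had 17, 25, 58 and 49 reads (2.02 and 1.55). The genes that fell were KCNK10, a background potassium channel with 53, 61, 21 and 16 reads (-1.03 and -1.31), and LGI1, a secreted protein that binds ADAM22, with 62, 60, 16 and 10 reads (-1.64 and -1.93). In all 6 both azacytidine libraries stood on 1 side of both others.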

How the data were processed

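Per the labels, polyadenylated RNA was reverse transcribed with MarathonRT in a modified Iso-Seq protocol and reads were aligned with minimap2 to hg38. Bambu, which assigns long reads to transcripts, is named as the annotation's source in the deposited file. Program versions were not given in the sources used here. The deposited gene and transcript tables hold estimated counts from the authors' quantification, and reads shared by transcripts of a gene are split between those transcripts. A further deposited table holds counts of reads assigned to 1 transcript alone. All deposited gene counts were even, to within 0.00031, so they were divided by 2 and 1 read is 2 deposited counts. The cause of the even values is not stated.

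The gene table sums to 595158 reads for the control, 767621 for the knockdown, 466337 for azacytidine and 477622 for the combined library. Groups come from the labels, with 1 library per group. Libraries were scaled by TMM (edgeR 4.0.16) over the 8145 genes that averaged 20 or more reads per library. Ratios use a pseudocount of 0.5. Two-sided exact binomial tests and Fisher's exact tests (scipy 1.17.1) were adjusted by the Benjamini-Hochberg method over all genes or transcripts tested. Additive models were fitted with edgeR's quasi-likelihood test and DESeq2 1.42.0 on rounded reads. The tests were tried on simulated data. Reads without a transcript are a gene's count less the sum of its transcripts' counts. Changes of TMM gene set and of the reads counted were added as alternatives after the data were seen.

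Named in full are the genes called by a rule, up to 3 genes with the largest log2 ratio past the thresholds in each comparison, and the most read gene of each role class. For transcripts they are the called ones, unannotated ones with at least 10 reads and the most read one of each leading gene. Other values are given by range or in brief. The members, lists and tests were chosen with earlier results of these data known. Promoters come from RefSeq (GRCh38.p14), in which 45 of the 53 genes matched by symbol.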

Additional observations from a re-analysis of the deposited data

Results flagged for a closer look

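CACNA2D1 was singled out because the comparisons of each treatment went in opposite directions in the 2 backgrounds. Its log2 ratio was 1.17 in knockdown against control and -0.74 in combined against azacytidine, a difference of 1.92. The same 4 libraries give the same difference of 1.92 between azacytidine against control (1.05) and combined against knockdown (-0.86). The difference itself was not tested, since each group is 1 library. Within CACNA2D1 lies BambuGene6489, with 2 reads in the control, 25 in the knockdown, 6 with azacytidine and 4 in the combined library. BambuGene6491, with 11, 22, 0 and 9 in the same order, and ENSG00000306495.1, with 0, 15, 6 and 1, also lie within it. These are on its strand. CACNA2D1-AS1, within it on the opposite strand, had 5, 18, 8 and 9. None of those named overlaps its exons. Further overlapping genes had at most 4 reads in a library. The part of these reads in the result was not tested.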

How the results depend on the processing

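No paired analysis was possible because each group is 1 library and the groups share only the replicate number 1; for the same reason no replicate could be left out. The number of channel genes called for the knockdown was 0 and became 1 with DESeq2 size factors (CACNA2D2), 1 with TMM over all genes (CACNA2D2) and 1 on reads without a transcript only (SCN2A). TMM over all genes moved the median of all genes in knockdown against control to a log2 ratio of 0.18 and that of the channel genes to 0.68. The number called for azacytidine was 3 and became 1 at a mean of at least 50 reads (KCNMA1), 0 on sums of uniquely assigned counts, for which 5 channel genes could be tested, 1 on transcript reads only (KCNMA1), 2 in the additive DESeq2 model (CACNB1 lost), 4 with the length trend removed (KCNJ6 gained) and 5 on reads without a transcript only (CACNB1, CACNB2, CACNB3, KCNMA1 and SCN2A). The crosswise number of 0 became 1 on reads without a transcript only (CACNA2D1). The channel genes' median log2 ratio in combined against azacytidine became -0.0292 at a mean of at least 50 reads, and in combined against knockdown -0.0140 at a mean of at least 5 reads and -0.49 on reads without a transcript only. Fewer genes are tested under stricter filters and more under looser ones; the cause of the other changes was not tested. With counts as deposited, 2 transcripts were called for the knockdown and 2 for azacytidine. The crosswise UNC80 transcript was lost (0 called) on uniquely assigned and on full-length counts. With uniquely assigned reads as the denominator the full-length share of the channel genes was 28.3%, 26.7%, 28.8% and 33.3% in place of 10.3%, 9.90%, 11.8% and 13.4%. Of the 28 single values past the thresholds, in 19 genes, the recomputations left 242 on the same side of the thresholds and 70 no longer past them, and none changed direction. The additive edgeR model kept 6 of the 28, DESeq2's kept 4, and transcript reads alone kept 7 of 20. Most channel genes have under 100 reads per library, which limits what can be detected.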
